A study of Mus musculus with 18 samples.

Results

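DNA methylation was compared on autosomes between SSEA1- reprogramming intermediates (2 samples) and female mouse embryonic fibroblasts (MEF, 4 samples), 6 of the 18 samples of a mouse series. All 6 are labelled female, and the SSEA1- samples are labelled as intermediates of reprogramming that are negative for the surface marker SSEA1. The regions compared were fixed windows of 1 kb, called tiles, in which at least 3 CpGs had 5 or more reads in every one of the 6 samples. There were 53836 such tiles, of 144323 that met this rule in at least 1 of the samples. The labels give neither strain, age, reprogramming factors nor day, and do not say whether samples of a group are separate cultures or animals. The p-values therefore reflect only how these libraries vary, and that variation may be technical. Other groups of the series serve below for their levels at the tiles found here and for a comparison that shares no sample with it: female SSEA1+ intermediates (2), male MEF (2), female induced pluripotent stem cells (iPSC, 2), and embryonic stem cells (ESC) of female (4) and male (2) sex.

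Methylation of cytosine in CpG pairs is copied to the new strand at each cell division, and in most somatic cells it covers the bulk of CpGs while CpG-dense promoters stay free of it. During reprogramming to pluripotency, fibroblasts are made to express transcription factors that open pluripotency genes, and methylation of some loci has to be removed for those genes to be read. SSEA1 is a carbohydrate on the surface of mouse pluripotent cells. Cells that gain it early are commonly regarded as on the way to pluripotency, and cells without it as less advanced or halted. Reduced representation bisulfite sequencing cuts DNA with a restriction enzyme, keeps short CpG-rich fragments, and reads unmethylated cytosines as thymine, so each CpG yields a count of methylated reads and of all reads.

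Libraries differed in how they sampled the genome, which touches every result here. Of the CpGs of a library, the part seen on both strands varied: both SSEA1- samples (15.7 and 16.05%) and MEF 2 (15.9%) were alike, MEF 1 stood at 11.5%, and MEF 3 and 4 at 7.33 and 7.46%. MEF 2 is therefore the library-matched reference, and the counts and main differences are given against all 4 MEF and against MEF 2 alone. Total reads over CpGs ran from 15691149 in MEF 2 to 46130295 in MEF 4, and the median tile held 83 to 285 reads per sample, where a read counts once for each CpG it covers. MEF 3 and 4 were more alike than any other pair. Only 0.403% of tiles differed by 20 points or more between them, against 4.02 to 6.51% in the other MEF pairs. Their counts differed in a chi-square test over tiles (p = 3.57e-239), and they entered the test separately. That chi-square counts a read once for each CpG and so overstates the difference, and it does not show that they are independent samples. The count of called tiles is therefore also given with both summed as 1 sample.

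At the level of single pairs, SSEA1- cells were not far from fibroblasts. The 2 SSEA1- samples differed from each other by 20 points or more in 6.24% of tiles. SSEA1- 2 differed from MEF 2 in 5.31% and from MEF 1 in 5.57%, which is less than the difference within SSEA1-. SSEA1- 1 differed from MEF 2 in 7.47%, and the highest share was 9.69%, between SSEA1- 1 and MEF 3. The shares between the groups thus overlapped those within them.

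**Figure D1:**
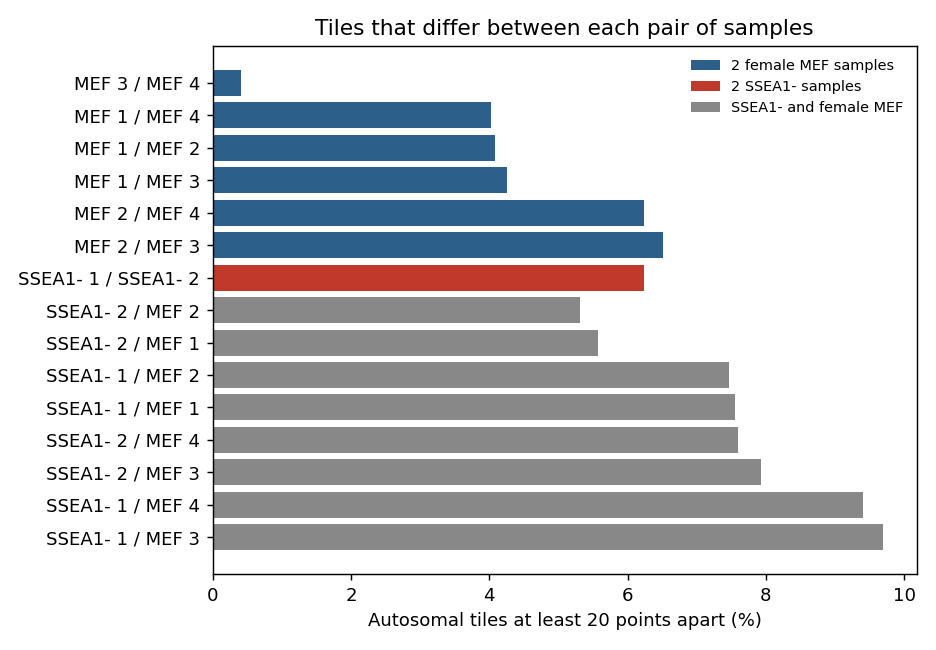
Percentage of the 53836 autosomal tiles whose methylation differs by at least 20 points between 2 samples, for each of the 15 pairs (bars; blue, 2 female MEF samples; red, the SSEA1- samples; grey, 1 of each). MEF 3 and 4 differ in 0.403% of tiles, and the lowest bar between groups (5.31%) lies below that within SSEA1- (6.24%).

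The mean methylation of autosomes was about the same in both groups. Over the 345762 CpGs with at least 5 reads in all 6 samples, the mean level was 56.9% in SSEA1- 1 and 56.7% in SSEA1- 2. MEF 1 to 4 stood at 57.5, 56.8, 58.7 and 58.7%. The group means were 56.8% ± 0.148 (SD, n = 2) and 57.9% ± 0.953 (SD, n = 4), a difference of -1.10 points (2-sided exact permutation test, p = 0.2; the smallest p that 2 against 4 samples allow is 0.0667). Against MEF 2 alone the difference was 0.0495 points, so the direction rests on the other MEF libraries. Over each sample's own CpGs the difference from all MEF was -7.53 points and weighted by reads -5.81, with p = 0.267 and 0.133 by the same exact test. MEF 3 and 4 stood at 58.0 and 57.6% over their own CpGs, against 43.96 to 47.8% in the 4 other samples.

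Within this near-equal mean, a small set of tiles was far less methylated in SSEA1- cells. By the quasi-binomial test with Benjamini-Hochberg adjustment over all tiles, 377 tiles (0.7%) were called, that is, had an adjusted p under 0.05 and group means at least 20 points apart. SSEA1- cells were lower at 343 of these (0.637% of tiles) and higher at 34 (0.0632%). With MEF 3 and 4 summed as 1 sample, 48 tiles were called, 45 lower and 3 higher. The lower tiles had a median difference of -37.5 points and reached -87.6, and the higher ones a median of 26.6 and at most 46.7, beside a median of -0.58 over all tiles. In each of the 377 the samples of the groups did not overlap, which was also so for 14.6% of all tiles in the lower and 7.01% in the higher direction. Set against MEF 2 alone, 311 of the 343 lower and 28 of the 34 higher tiles were at least 20 points apart the same way, with medians of -35.2 and 25.1. MEF 2 and the SSEA1- samples took part in choosing these tiles, so this count is not a separate check of them. Against MEF 2, all tiles together gave 2.61% lower and 1.96% higher by that margin. How many tiles pass depends on single libraries. The count was 0 without SSEA1- 2, without MEF 3 or without MEF 4, 36 without SSEA1- 1, 93 without MEF 1, and 1091 without the library-matched MEF 2. It was also 0 with a term for library type, a model in which MEF 2 is the only MEF of the SSEA1- type. At an unadjusted p under 0.05 there were 12584 tiles (23.4%) with all 6 samples. In male MEF 1, the one library of the SSEA1- type from MEF that the comparison did not use, 341 of the lower tiles were read, and SSEA1- cells were at least 20 points lower at 280 of them (4.49% of all tiles were, and 6.41% of tiles at 20% or more in female MEF). The tiles were chosen for low values in these same SSEA1- samples, so only the reference is new in that count. Of the 34 higher tiles, 11 were at least 20 points higher in SSEA1- than in that library (0.772% of all tiles). With MEF 2 and male MEF 1 together as the reference, the test called 0 tiles (7025 at an unadjusted p under 0.05).

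The lower tiles held few read CpGs and were methylated in fibroblasts. Read CpGs are counted here as the mean over the 6 samples, and how many CpGs the sequence of a tile holds was not determined. Of the 343, 328 held fewer than 10 read CpGs, as did 36053 of the 53836 tiles, and 15 held 10 to 29. Tiles with many read CpGs were mostly unmethylated in MEF (mean 6.56% at 30 or more read CpGs, 65.0% under 10). A tile under 20% in MEF cannot be lower by 20 points. Among the tiles at 20% or more in MEF, 328 of 29933 with fewer than 10 read CpGs were lower (1.10%), 15 of 5101 with 10 to 29 (0.294%) and 0 of 178 with 30 or more. Of the tiles with a fibroblast level of 20 to 80%, 231 of 13443 (1.72%) were lower, against 112 of 21769 (0.514%) at 80% or more. The higher tiles comprised 13 with MEF levels under 20% and 21 at 20 to 80%. Lower tiles were spread over all autosomes, from 0.311% of the tiles of chromosome 14 to 0.946% of those of chromosome 11. They lay mostly apart: with neighbours within 5 kb joined, 367 called tiles stood alone and 5 runs held 2 tiles each.

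**Figure D2:**
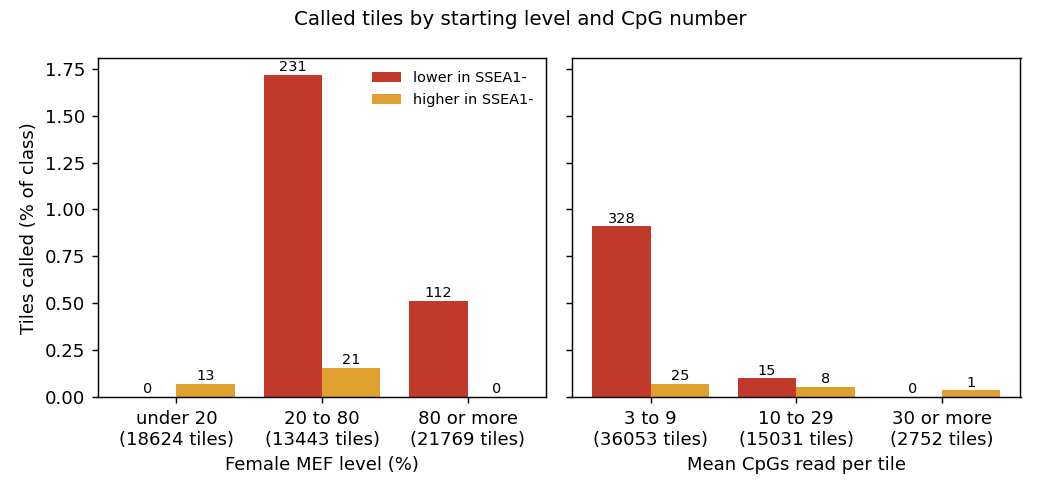
Percentage of tiles called lower (red) or higher (yellow) in SSEA1- than in female MEF, by the female MEF methylation level (left) and by the mean number of CpGs read per tile (right); numbers over the bars count called tiles. Tiles at 20 to 80% in MEF hold 231 of the 343 lower tiles, and tiles with fewer than 10 read CpGs hold 328.

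Of the lower tiles outside chromosome 18, 97 were also at least 20 points under MEF 2 and called over only the CpGs read in all 6 samples. The 10 with the largest differences among these, at most 1 per 100 kb, are numbered here by size. They went from 58.5 to 96.7% in single MEF samples to 0 to 32.2% in single SSEA1- samples, with differences of -55.1 to -79.1 points from MEF 2. Coordinates are on mm9. Tile 1, chr2:166105001-166106000, had levels of 0% (64 reads) in SSEA1- 1 and 12.1% (124 reads) in SSEA1- 2. In MEF 1 to 4 it stood at 94.4, 81.0, 92.4 and 92.9%. Its deepest shared CpG had 16 reads in SSEA1- 1, and 0 of 16 allows a level of up to 18.8%, as far as counting error goes. The group means were 6.05% ± 8.55 (SD, n = 2) and 90.2% ± 6.19 (SD, n = 4), -84.1 points apart (quasi-binomial test, adjusted p = 0.0066), and -74.9 points from MEF 2. The groups lie far apart at each of the 4 CpGs of this tile that were read in all 6 samples: all 4 stood at 0% in both SSEA1- samples and at 66.7 to 100% in MEF. These 4 CpGs lie within 25 bases, and CpGs this close share reads, so they are not independent. The named tiles were chosen as not overlapping and as called over shared CpGs. Separation at their single CpGs therefore comes in part with the choice. The share of all shared CpGs that separate the groups was not counted, here or for the tiles and promoters below.

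Tile 7, chr1:191579001-191580000, held no methylated read in SSEA1- cells, 0 of 101 reads in SSEA1- 1 and 0 of 126 in SSEA1- 2, summed over CpGs. The deepest shared CpG held 21 and 22 reads, which allows up to 14.3 and 13.6%. MEF 1 to 4 stood at 58.5, 76.2, 79.2 and 75.2% (63 to 310 reads). The difference of group means was -72.3 points (quasi-binomial test, adjusted p = 0.00549). All 6 of its shared CpGs, over 130 bases, separated the groups, although the last of them was only at 22.7 and 25% in MEF 1 and 2. The nearest promoter placed before it was that of Ptpn14, a protein tyrosine phosphatase gene, 27.4 kb away. The next one after it was that of Smyd2, a lysine methyltransferase gene, and the GRCm38.p6 gene order has no other protein-coding gene between them. Before and after follow the coordinate here and below, not the strand of a gene. Only promoters were placed, so a tile between promoters can lie inside a gene.

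Tile 2, chr14:102243001-102244000, stood at 14.3 and 16.3% in SSEA1- 1 and 2 (70 and 147 reads) and at 89.1, 94.4, 93.3 and 96.7% in MEF 1 to 4 (15 to 55 reads). It lies between the promoters of Lmo7 and Kctd12, with no protein-coding gene listed between these. Tile 3, chr5:125561001-125562000, was at 1.82 and 2.53% in SSEA1- and at 90.3, 64.9, 83.7 and 80.7% in MEF. Its 3 shared CpGs span 722 bases, and all 3 separated the groups. Tile 5, chr11:95680001-95681000, was at 13.1 and 21.3% in SSEA1- against 95.2, 86.4, 92.6 and 92.2% in MEF. Its 4 shared CpGs fell in opposite order in the SSEA1- samples: the first CpG was at 0% in SSEA1- 1 and 27.3% in SSEA1- 2, the last at 27.1 and 0%. Tile 10, chr6:119007001-119008000, was at 32.2 and 13.7% in SSEA1-, against 88.8 to 92.9% in MEF. By coordinate it lies 51.0 kb before the promoter of Cacna1c, which encodes the pore subunit of a voltage-gated calcium channel. No other protein-coding gene is listed between Ankrd26 and Cacna1c, and whether the tile lies inside either gene was not determined.

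The other lower tiles of this group were tile 4 (chr12:16159001-16160000), tile 6 (chr2:27167001-27168000), tile 8 (chr19:40424001-40425000) and tile 9 (chr3:36364001-36365000). Their differences ran from -75.6 to -70.0 points. Tile 4 was the least even of the 10 between SSEA1- samples, at 0 and 20.3%, against 80.5 to 92.0% in MEF. Its first CpG was 0% (6 reads) in SSEA1- 1 and 100% (7 reads) in SSEA1- 2, and the other 3 of its 4 shared CpGs separated the groups. At tile 9, 2 of 3 shared CpGs separated the groups, with 41 and 36 reads in SSEA1- 1 and 2 over the whole tile. At tile 6, the third shared CpG was at 100 and 88.6% in SSEA1-, like the MEF samples. The other 2 shared CpGs, which lie close together, were at 2.998 to 10.6% in SSEA1- and carried 255 and 467 reads. Relative to library size, SSEA1- cells had 6.12 times the reads of MEF 2 at tile 6, where the median over all tiles was 1.05. Only 16 tiles had a ratio of 5 or more. With reads capped at 50 per CpG, the difference of tile 6 was -52.4 points in place of -73.2 and the tile was still called (quasi-binomial test, adjusted p = 0.0457).

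**Figure D3:**
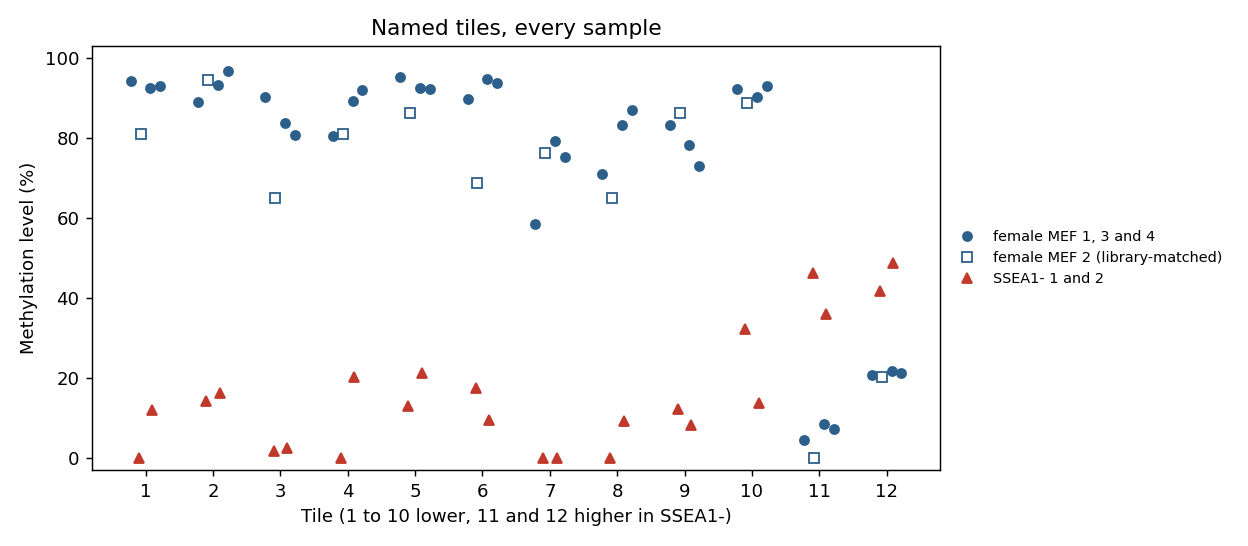
Methylation level in every sample of the 10 lower and 2 higher tiles with the largest differences among those also called over shared CpGs and at least 20 points from MEF 2 (red triangles, SSEA1- 1 and 2; blue circles, female MEF 1, 3 and 4; open squares, the library-matched MEF 2). In tiles 1 to 10 no SSEA1- sample exceeds 32.2% and no MEF sample is under 58.5%, and tiles 11 and 12 are higher in SSEA1-.

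Only 2 higher tiles met the same rule. Tile 12, chr8:90184001-90185000, was at 41.9% (356 reads) in SSEA1- 1 and 48.7% (643 reads) in SSEA1- 2. MEF 1 to 4 stood at 20.8, 20.3, 21.7 and 21.4%, the tightest MEF values of the 12. The difference was 24.2 points (quasi-binomial test, adjusted p = 0.0066), and 10 of its 13 shared CpGs, spread over 915 bases, separated the groups. The tile lies between the promoters of Gm2694 and Zfp423. It was also at 48.5 and 40.5% in male MEF 1 and 2, which overlaps the SSEA1- samples.

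Tile 11, chr16:17531001-17532000, which holds the promoter of Thap7, a zinc finger protein gene, was at 46.2 and 36.0% in SSEA1- and at 4.43, 0, 8.57 and 7.37% in MEF 1 to 4. Only 1 of its 5 shared CpGs separated the groups, at 86.1 and 76.8% in SSEA1- against 0 to 6.90% in MEF, and the other 4 were at 0 to 1.39% in all 6 samples. That CpG carried 252 and 302 reads in SSEA1-. The whole tile had 8.31 times the reads of MEF 2 relative to library size, and with reads capped at 50 per CpG the difference was 22.1 points in place of 36.0 and the tile was not called (quasi-binomial test, adjusted p = 0.0866). SSEA1+ cells were alike, at 39.3 and 38.5%, and male MEF, iPSC and ESC stood at 0 to 7.95%.

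**Figure D4:**
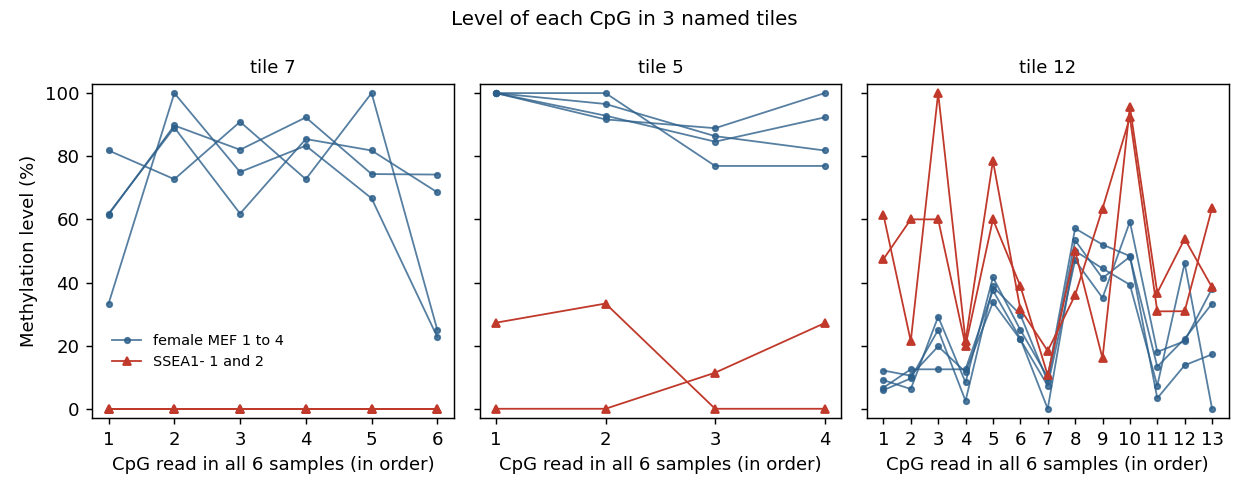
Methylation level of each CpG read in all 6 samples, in order along tiles 7, 5 and 12 (blue, female MEF 1 to 4; red, SSEA1- 1 and 2); neighbouring CpGs can share reads. All 6 CpGs of tile 7 are at 0% in both SSEA1- samples, and in tile 12 the SSEA1- samples lie above MEF at 10 of 13 CpGs.

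The 5 runs of neighbouring called tiles comprised 4 lower and 1 higher. On chromosome 1, tiles 135959001-135960000 and 135960001-135961000 were at 0 to 5.63% in SSEA1- samples and at 20 to 35.8% in MEF. On chromosome 6, tiles 128315001-128316000 and 128316001-128317000 went from 80.4 to 95.9% in MEF to 39.1 to 67.9% in SSEA1-. The first tile of the run on chromosome 11 from 97687001 was uneven, at 0 and 25.9% in SSEA1- 1 and 2 against 81.5 to 86.7% in MEF. Its second tile was at 59.6 and 51.3% against 88.4 to 92.2%. On chromosome 11 from 116007001, both tiles were at 15.7 to 27.1% in SSEA1- and 54.9 to 76.3% in MEF. The higher run lay on chromosome 10 from 84220001, with 58.8 and 48.4% in SSEA1- against 22.6 to 28.8% in MEF in its first tile, and 29.3 and 24.0% against 2.38 to 8.70% in its second. The groups did not overlap in these tiles, as in every called tile.

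Where gene promoters could be placed, almost all were unmethylated in both groups. RefSeq promoter sequences (300 bases, GRCm38.p6) were placed on mm9 by the spacing of their CpGs, which succeeded for 7952 promoters and favours CpG-rich ones. The promoters of Pou5f1 and Nanog, core pluripotency genes, could not be placed in this way. Of 4859 placed promoters read in all 6 samples, 96.7% were under 20% in every sample. By the quasi-binomial test 0 were called, 713 (14.7%) had an unadjusted p under 0.05, and the lowest adjusted p was 0.313. With limma 0 were called as well.

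Of the 1 kb tiles, 6402 held a placed promoter, and 3 of these were called lower (0.0469%) and 2 higher (0.0312%). The lower ones held the promoters of Hormad2, a meiosis gene of chromosome pairing, of Gm35290, a predicted gene, and the shared promoter of Ribc2 and Smc1b, the last a cohesin subunit of meiosis. The Hormad2 tile was at 29.8 and 18.9% in SSEA1- and at 49.0, 41.0, 57.9 and 56.2% in MEF 1 to 4. It fell by 26.7 points (quasi-binomial test, adjusted p = 0.0438), and lay 16.6 points under MEF 2. The tile of Smc1b was at 7.43 and 8.51% in SSEA1- and 39.2, 17.5, 51.5 and 56.4% in MEF, 9.56 points under MEF 2. None of its 5 shared CpGs separated the groups. The last of them was at 0% in all 6 samples. The others were at 100% in SSEA1- 1 (6 reads each), 30 to 89.5% in SSEA1- 2 and 33.3 to 100% in MEF. The low level of this tile in SSEA1- 1 thus lies in CpGs that did not reach 5 reads in all samples. The Gm35290 tile was at 12.2 and 9.17% against 28.5 to 32.3%, and its difference from MEF 2 was -17.8 points. The higher ones were that of Thap7 (tile 11) and that of Entr1, which encodes an endosomal trafficking regulator. The Entr1 tile was at 32.5 and 27.1% in SSEA1- and 0 to 2.47% in MEF, but its 2 shared CpGs were at 0 to 2.53% in all 6 samples. The difference there thus lies in CpGs that did not reach 5 reads in all samples.

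The promoters below are shown as sequence, with the CpGs read in all 6 samples in capitals, 5′ to 3′ along the gene's strand. They were chosen after their values were seen, to show which CpGs of a promoter could be compared in all 6 samples. The level of a promoter in a sample can also include CpGs that are not in capitals. The sequences are RefSeq's of GRCm38.p6, and the positions given are those placed on mm9. Hormad2 lies in a called tile. Sycp2l, a relative of a synaptonemal complex gene, and Catsperz, a subunit gene of the sperm calcium channel, are among the 6 promoters at least 20 points from both MEF references, none of which passed the adjusted test.
Hormad2: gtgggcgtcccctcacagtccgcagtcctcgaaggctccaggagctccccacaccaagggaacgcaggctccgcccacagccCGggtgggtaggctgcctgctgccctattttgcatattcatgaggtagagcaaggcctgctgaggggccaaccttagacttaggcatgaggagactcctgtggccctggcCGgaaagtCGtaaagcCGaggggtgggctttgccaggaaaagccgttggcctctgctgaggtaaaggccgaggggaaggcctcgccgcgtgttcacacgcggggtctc
Catsperz: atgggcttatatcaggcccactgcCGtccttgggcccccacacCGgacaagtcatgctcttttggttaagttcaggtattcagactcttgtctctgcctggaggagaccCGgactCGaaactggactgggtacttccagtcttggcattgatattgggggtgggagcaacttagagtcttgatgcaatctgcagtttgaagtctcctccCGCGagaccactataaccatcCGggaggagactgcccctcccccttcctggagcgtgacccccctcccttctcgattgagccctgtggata
Sycp2l: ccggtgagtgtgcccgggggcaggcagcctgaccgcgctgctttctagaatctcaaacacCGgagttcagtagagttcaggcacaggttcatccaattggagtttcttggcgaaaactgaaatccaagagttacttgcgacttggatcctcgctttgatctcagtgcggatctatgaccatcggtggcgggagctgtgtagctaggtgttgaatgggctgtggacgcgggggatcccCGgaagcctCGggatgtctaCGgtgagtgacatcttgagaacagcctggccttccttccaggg

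At the Catsperz promoter, placed at chr19:6999821-7000120, 7 of 9 CpGs were read in all samples. Its level was 37.1 and 28.7% in SSEA1- 1 and 2 (202 and 314 reads) and 9.77, 11.7, 15.2 and 11.5% in MEF 1 to 4. The samples of the groups do not overlap, as at 6.63% of all promoters tested, and 4 of the 7 capitalised CpGs separated them. The difference was 20.8 points (quasi-binomial test, adjusted p = 0.313). At the Sycp2l promoter, placed at chr13:41209538-41209837, the level was 14.9 and 14.1% in SSEA1- and 34.7, 40, 30.8 and 33.8% in MEF, with an adjusted p of 0.313 as well. Only 1 of its 4 capitalised CpGs separated the groups. The first of them was at 66.7% in SSEA1- 1 and 14.8% in SSEA1- 2, against 37.4 to 44.4% in MEF. The promoter level also includes CpGs that were not read in all 6 samples, so it does not show a consistent loss at the same CpGs. In the Hormad2 window itself, placed at chr11:4341036-4341335, SSEA1- 1 and 2 were at 31.6 and 13.7% and MEF 1 to 4 at 41.2, 38.1, 30 and 29.9%, so the groups overlapped there although the whole tile was called.

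Lists of marker genes gave 0 called promoter tiles, and few of their promoters could be read. Of all tiles with a placed promoter, 0.0469% were called lower and 0.0312% higher, so 0 among so few tiles says nothing particular about these genes. Of 16 pluripotency genes only Fgf4, a growth factor gene of pluripotent cells, had a tile, at 1.44 and 5.005% in SSEA1- against 0.235 to 1.65% in MEF. Of 14 fibroblast genes, 4 were read: Twist2, Snai1 and Zeb2, which encode mesenchymal transcription factors, and Vim, which encodes an intermediate filament protein. Of 11 epithelial genes, the 2 junction genes Ocln and Cldn7 were read. The 8 tiles of these 3 lists stood at 0 to 9.98% in all 6 samples. Of 8 germline genes, 3 were read, and these were methylated in both groups. The tile of Ddx4, an RNA helicase gene of germ cells, was at 66.5 and 68.6% in SSEA1- and 59.1 to 75% in MEF. That of Mael, a gene of transposon silencing in germ cells, was at 74.4 and 76.2% against 72.6 to 89.9%. Tex101, a germ cell surface protein gene, was at 100 and 95.1% against 88.9 to 94.7%. Of 6 genes of other embryonic cell types 0 were read. RNA was not measured in these samples, so the labelled cell types could not be checked on marker expression.

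The levels of the other groups at the called tiles were then read, as a description where female MEF or SSEA1- samples chose the tiles. At the 343 lower tiles the median level was 23.2% in SSEA1- and 70.0% in female MEF. Male MEF stood near female MEF, at 72.6% (334 tiles read in both samples). Of the groups read, SSEA1- had the lowest median: SSEA1+ stood at 36.7% (227 tiles), female ESC at 36.0% (290), female iPSC at 48.0% (322) and male ESC at 66.6% (297). Since the tiles were chosen for low SSEA1- values, some of this gap comes with the choice. Female iPSC were at least 20 points above SSEA1- at 158 of 322 of them and male ESC at 190 of 297, against 5.65 and 10.3% of all tiles at 20% or more in female MEF. They were that far below at 20 and 11, against 37.9 and 24.6%. Female ESC were that far above at 92 of 290 and that far below at 38, against 1.97 and 68.6%. SSEA1+ were above at 72 of 227 and below at 9, against 2.63 and 5.09%. Over those background tiles SSEA1- had a median of 82.9%, which leaves less room above it and more below than at the lower tiles. The shares above and below therefore cannot tell a trait of the lower tiles from the way they were chosen. At tiles 1 to 10, both groups of ESC were above SSEA1- at all 10, and iPSC at all 9 that were read. At tile 6, for example, SSEA1- had a mean of 13.5%, SSEA1+ 10.98%, iPSC 72.9%, female ESC 52.9% and male ESC 88.0%. Tile 7 went the other way in SSEA1+ 1, at 69.0%, while iPSC stood at 24.4 and 19.5%.

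At the 34 higher tiles, SSEA1- had a median of 51.6% and female MEF of 24.3%, while male MEF stood at 44.5% and SSEA1+ at 38.9%. Female ESC stood at 22.6%, iPSC at 32.0% and male ESC at 44.8%, beside male MEF. Male MEF were thus nearer to SSEA1- than to female MEF at these tiles, unlike at the lower ones. The higher tiles were chosen for low female MEF levels relative to SSEA1-, so some of the gap to female MEF comes with the choice. These medians therefore cannot tell a trait of male MEF from the way the tiles were chosen.

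**Figure D5:**
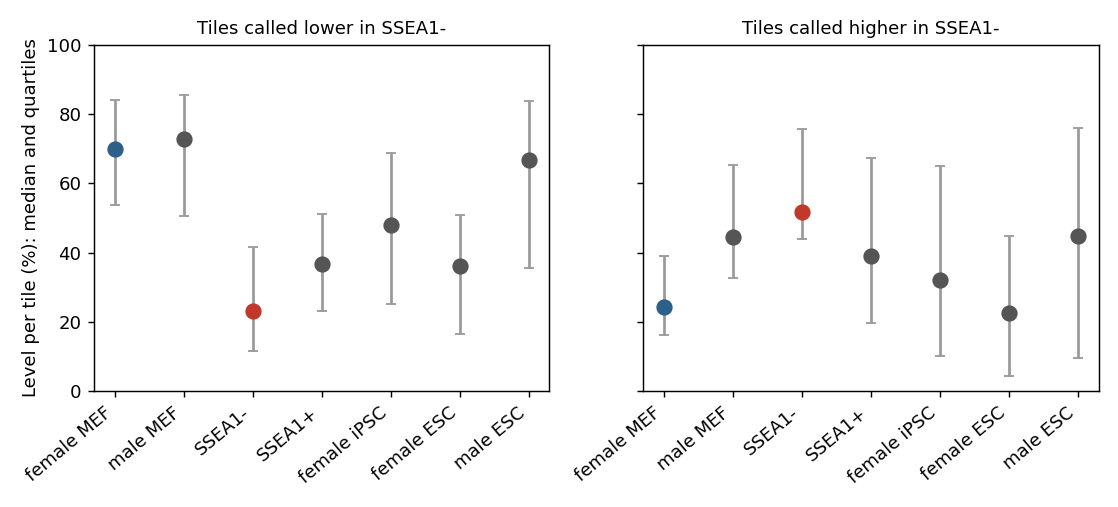
Methylation level of 7 groups at the tiles called lower (left) and higher (right) in SSEA1- than in female MEF (points, median over tiles of the group mean; bars, quartiles; tiles read in all samples of a group). At lower tiles male MEF (72.6%) stand beside female MEF (70.0%). At higher tiles male MEF (44.5%) and male ESC (44.8%) stand near SSEA1- (51.6%).

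The lower tiles could also be read in samples that had no part in choosing them, by setting SSEA1+ (2) against male MEF (2). Sex and reprogramming (intermediates against fibroblasts) differ between these groups and cannot be told apart there. Library type differs in part as well. Male MEF 2 had 10.3% of its CpGs read on both strands, against 16.0% in male MEF 1 and 15.9 and 15.2% in SSEA1+ 1 and 2. Of the 343 tiles, 221 were read in those 4 samples. SSEA1+ was lower at 199 of them (90.0%), against 69% of all tiles read in both comparisons. By at least 20 points it was lower at 144 (65.2%), against 6.02% of those 39175 tiles. Among tiles with fewer than 10 read CpGs and a female MEF level of 20% or more, that share was 12.1%. The median difference was -27.8 points at the lower tiles and -1.12 over all tiles. The higher tiles were mixed: 9 of 28 were higher in SSEA1+, against 26.5% of all tiles, and their median difference was -4.33 points. By at least 20 points, 4 of the 28 were higher (0.636% of all tiles) and 3 lower. By itself the comparison of SSEA1+ with male MEF called 0 of 54708 tiles with the quasi-binomial test and 0 with limma, and 6131 (11.2%) had an unadjusted p under 0.05. The SSEA1+ samples were uneven at the lower tiles, with medians of 44.3% in SSEA1+ 1 and 30.7% in SSEA1+ 2, where SSEA1- 1 and 2 stood at 23.7 and 23.9%.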

How the data were processed

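Reduced representation bisulfite sequencing was analysed from the deposited tables, whose rows give, per CpG and strand, how many reads were methylated and how many there were. The deposited counts were used as they are. The build is mm9, per the submitters' processing notes, and the aligner, caller and filters are not named in the sources used here. CpGs that an aligner cannot place, or strain differences, would enter as missing or altered counts.

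Strands were added, CpGs kept at 5 or more reads, and counts summed over 1 kb tiles with at least 3 CpGs in all samples compared. Levels are methylated over total reads. A quasi-binomial logistic model was fitted per tile, with the dispersion moderated across tiles as limma does (floor of 1). The F tests were adjusted by Benjamini-Hochberg over all autosomal tiles. A tile is called at an adjusted p under 0.05 and 20 points. The test was also run on simulated counts. These held no effect of library type and drew every sample independently, so they do not check the calls against library type or the likeness of MEF 3 and 4. SSEA1- and female MEF samples share only a number (correlations of deviations below), and no block was used. Software was limma 3.58.1 under R 4.3.3, and Python 3.11.15 with scipy 1.17.1, numpy 2.4.6, matplotlib 3.10.9 and pandas 2.3.3.

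Tiles named are called, do not overlap between groups, differ from MEF 2 by 20 points the same way, and are called over shared CpGs too: the 10 largest each way, 1 per 100 kb, not on chromosome 18, and the 5 longest runs. Samples, tiles and gene lists were chosen with earlier results of these data known.

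The design allowed gene names only with an mm9 reference, which was not in hand. Gene names therefore rest on a placement, added after the data were seen, of RefSeq promoters (GRCm38.p6, 250 bases before to 50 after the start) by matching the spacing of at least 6 CpGs to CpG positions in the deposited tables. Of 4 settings of the match, 1 could not be completed and the last one tried was kept. Of 32851 sequences, 18541 had 6 CpGs, 8344 had 1 match, 8009 matched on the named chromosome, and 7952 also had a neighbour with the same shift and were kept. The promoter test and its alternatives were added too. Alternatives were 10 or 3 reads, shared CpGs, a cap of 50 reads, limma on log2 ratios (prior count 1), a replicate block, library type as a term, MEF 3 and 4 summed, all 18 samples, and leaving out each sample. Library type C is under 8% and type B over 14% of CpGs read on both strands.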

Additional observations from a re-analysis of the deposited data

Results flagged for a closer look

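At tile 1 (chr2:166105001-166106000), the level in female MEF 2 was 81.0%, far from the 3 other MEF samples (92.4 to 94.4%). Its gap to the nearest of them, divided by the range of the 4 samples, was 0.857, above Dixon's critical value of 0.829. It is 1 of 13 groups of 4 samples examined in this way, and chance flags about 1 group in 20. The tile lay 74.9 points lower in SSEA1- than in this sample.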

How the results depend on the processing

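The count of 377 called tiles, 343 lower and 34 higher, depended strongly on the processing, while its split stayed towards lower tiles wherever any were called. It was 126 at a minimum of 10 reads, 110 over shared CpGs, 106 with limma, 48 with MEF 3 and 4 as 1 sample, and 664 with all 18 samples in one fit, which tests 32195 tiles and shares 194 calls. At 3 reads it was 489 and with reads capped at 50 it was 352. It was 0 with a replicate block (3021 tiles at an unadjusted p under 0.05) and 0 with library type as a term (3613). Alternatives chosen after seeing the data gave 0 within library type B, with MEF 2 and male MEF 1 as the reference (7025), and 371 without tiles of 5 or more times the reads of MEF 2. Leaving out each sample in turn gave 0 to 1091; without 1 SSEA1- sample, the other was assumed to vary like the MEF samples. The causes were not tested. Same-numbered samples did not deviate together (correlations of -0.00176 and 0.00743 for numbers 1 and 2, and -0.0314 for SSEA1+ against male MEF), so the numbers do not pair the samples. No named tile changed direction where it was tested, which their choice for large differences made unlikely beforehand. At 10 reads 6 of the 12 were tested, and with all 18 samples 7. Within library type B, 0 of the 12 were called, and the difference of tile 12 was 10.9 points. All 12 were called at 3 reads, 11 with reads capped at 50 (not tile 11), 9 with limma, 8 with MEF 3 and 4 as 1 sample, and 0 with the replicate block, with library type as a term, or without SSEA1- 2, MEF 3 or MEF 4; being called over shared CpGs was part of their choice. The difference of -1.10 points in mean level was 0.0495 against MEF 2 alone, and -1.44 to -0.857 with each sample left out. SSEA1+ against male MEF and the promoter test called 0 under every alternative run, the replicate block included (5616 tiles and 219 promoters at an unadjusted p under 0.05). Depth limits what can be called: the lowest tile held 15 reads in a sample, and 30223 tiles remained at 10 reads.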

Other observations

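MEF 3 and 4 were both at least 20 points above the 4 other samples at 426 of the 53836 tiles and at 34 of the 4859 promoters. Of the 343 lower tiles, 3 were of this kind. The other promoters at least 20 points from both MEF references were all higher in SSEA1-. Gm35510 stood at 42.1 and 36.1% in SSEA1- 1 and 2 against 11.03 to 16.7% in MEF. Gm24463 rested on SSEA1- 1, at 48.5%, while SSEA1- 2 was at 5.49%, within the 0.965 to 7.84% of the MEF samples. Gm12992 was at 56.7 and 24.2% against 10.4 to 20.6%. Rpl39l, a ribosomal protein gene relative, was at 71.7 and 56.4% against 62.1, 43.9, 2.78 and 10.7% in MEF 1 to 4, so the groups overlapped. None of them passed the quasi-binomial test (adjusted p of 0.313 to 0.334).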
